A study of Mus musculus with 15 samples.

Results

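Intermediate filament genes were read in cultured mouse retinal pigment epithelium (RPE) cells without Prom1 and in mouse RPE/choroid. The 10 genes were chosen by symbol: the simple keratins Krt7, Krt8, Krt18 and Krt19, the type III filament genes Vim and Des, the large filament genes Nes and Synm, and the lamin genes Lmna and Lmnb1. All 10 have counts in the RPE/choroid table of 25038 genes, and 8 of 10 in the culture table of 20910 genes. Krt8 and Krt18 were not analysed here in the cultured cells, and neither was Prom1.

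The cultured cells, called mRPE, were isolated from pooled adult C57/BL6J mice and immortalized with a lentivirus carrying HPV oncogenes. WT mRPE (4 libraries) was compared with the Prom1-KO clones KO22 (3 libraries) and KO26 (2 libraries), made with lentiviral Cas9 and a guide RNA to Prom1 exon 5. The study removed both KO26 libraries as outliers, naming biological heterogeneity or technical anomalies as possible reasons, and they are kept here. Whether the WT libraries came from cells given a scrambled guide is not given in the sources used here, and each KO group is a single clone. The library names carry 2 batch numbers, with 1 library of each group in batch 8995 and the others in batch 9262. The RPE/choroid libraries (3 WT and 3 labelled Prom1-KO, all of batch 12965) came from dissected eyes of mice with and without RPE-specific deletion, made by crossing Prom1 fl/fl mice with RPE65-Cre mice and giving tamoxifen by gavage. The methods give young adult mice of both sexes without assigning them to libraries. Nothing says that libraries of one group were separate cultures, so p-values for mRPE measure only the spread between these libraries.

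Total counts ran from 8076188 to 27537863 per mRPE library and from 48154444 to 61766179 per RPE/choroid library. Mitochondrial genes took 12.9% to 21.6% of the counts in mRPE and 64.9% to 71.3% in 5 of the RPE/choroid libraries. The third library labelled Prom1-KO stood apart, with 84.2%. The labels were checked against markers. In RPE/choroid, Prom1 was not measurably lower in the libraries labelled Prom1-KO (log2 fold change −0.18, SE 0.158, adjusted p = 0.824 in edgeR), so these are called by their label below. In mRPE only 3 of 10 RPE markers (Best1, Mitf, Pmel) were analysed, and they summed to 8.19 to 12.8 CPM in WT, whereas 5 of 6 fibroblast markers summed to 12800 to 17500 CPM. CPM is the read count scaled to a common library size by TMM, which corrects for composition.

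Intermediate filaments are rope-like polymers of coiled-coil proteins that give cells and nuclei mechanical strength. Simple epithelia build them from pairs of an acidic keratin (Krt18, Krt19) and a basic keratin (Krt7, Krt8), mesenchymal cells from vimentin and muscle from desmin. Nestin and synemin cannot form filaments alone and join vimentin or desmin. Lamins line the inside of the nuclear envelope, lamin A/C from Lmna and lamin B1 from Lmnb1. RPE in place is an epithelium with keratin filaments, and RPE cells in culture are known to gain vimentin.

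Of the 8 filament genes analysed in mRPE, Vim had by far the highest level. Per kilobase of exon, the mean level in WT was 409 ± 49.2 CPM/kb (SD, n = 4) for Vim and 15.9 ± 4.70 for Lmna. It was 2.97 ± 1.06 for Lmnb1, 1.24 ± 0.662 for Nes, 0.717 ± 0.193 for Synm, 0.560 ± 0.125 for Krt7, 0.0876 ± 0.116 for Krt19 and 0.0212 ± 0.0425 for Des. Vim, Lmna and Lmnb1 did not overlap across the WT libraries, whereas the ranges of Lmnb1 and Nes, of Nes and Synm, and of Synm and Krt7 did. With the longest transcript as the length in place of all exons, the mean of Krt7 was 0.965 and lay above that of Synm at 0.723.

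The order changed in the clones. Nes came next after Vim and Lmna in KO22, at 13.8 ± 1.73 CPM/kb (n = 3), above Lmnb1 at 9.42 ± 2.55, and Krt7 was last of 8 at 0.0439 ± 0.0209. In KO26 (n = 2) Vim and the lamin genes still led, with Nes at 2.72 ± 1.32 and Synm at 1.14 ± 0.0716, and Des was last at 0.315 ± 0.190.

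**Figure D1:**
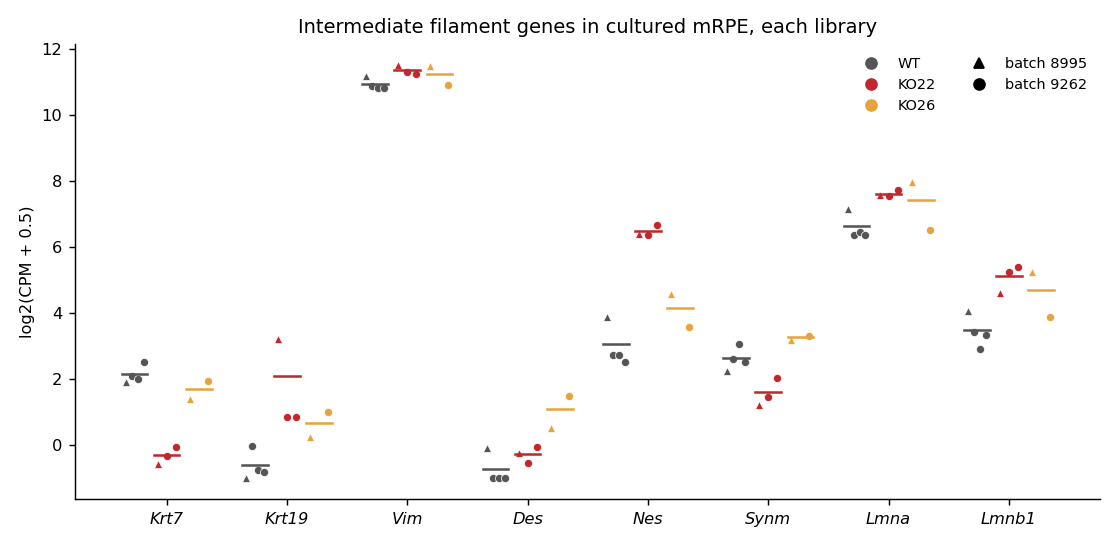
Level of each filament gene in the 9 mRPE libraries, as log2(CPM + 0.5). Points are libraries (triangles batch 8995, circles batch 9262), bars stand at the mean CPM of a group, and KO22 lies apart from WT for Krt7 and Nes while Vim is the highest gene in every library.

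The question the culture comparison addresses is what loss of Prom1 does to RPE cells, and a gene was called when its adjusted p in edgeR's quasi-likelihood test was under 0.05 and its absolute log2 fold change over 1.2. In KO22, 3 filament genes were higher than in WT (Krt19, Nes and Lmnb1) and Krt7 was lower. Lmna, Synm and Vim were not called, and Des had too few counts to be tested. Thus 4 of 7 genes tested were called, beside 25.2% of all genes in this comparison (11.4% higher and 13.8% lower). On adjusted p alone, with no fold limit, all 7 passed (5 higher and 2 lower), beside 53% of all genes. The median log2 fold change of the 7 was 1.01, beside −0.03 over all genes. In bulk libraries, fewer cells of a type and less RNA per cell cannot be told apart.

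The promoters of the 3 genes that moved most in KO22 are shown because the keratin genes moved in opposite directions. Each run covers 250 bases before and 50 bases from the start of the canonical transcript on its own strand (GRCm39, the build of the files, with GENCODE annotation), and capitals mark matches to the motifs searched on both strands. Those were the GC box GGGCGG, the AP-1 site TGANTCA, the E-box CAGGTG and the TATA box TATAAA.
Krt7, chr15:101310033-101310332, plus strand: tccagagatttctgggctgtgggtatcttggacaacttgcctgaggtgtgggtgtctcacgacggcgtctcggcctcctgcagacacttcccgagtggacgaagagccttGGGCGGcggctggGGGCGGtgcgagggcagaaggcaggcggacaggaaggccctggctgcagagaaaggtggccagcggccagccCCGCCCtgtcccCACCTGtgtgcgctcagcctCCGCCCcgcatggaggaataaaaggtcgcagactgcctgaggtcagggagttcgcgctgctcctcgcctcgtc
Krt19, chr11:100036897-100037196, minus strand: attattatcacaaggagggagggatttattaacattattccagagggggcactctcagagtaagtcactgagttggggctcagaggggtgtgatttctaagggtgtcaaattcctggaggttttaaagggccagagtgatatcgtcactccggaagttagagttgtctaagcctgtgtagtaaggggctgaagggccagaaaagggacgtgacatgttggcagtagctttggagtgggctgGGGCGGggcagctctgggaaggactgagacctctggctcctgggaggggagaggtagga
Nes, chr3:87878150-87878449, plus strand: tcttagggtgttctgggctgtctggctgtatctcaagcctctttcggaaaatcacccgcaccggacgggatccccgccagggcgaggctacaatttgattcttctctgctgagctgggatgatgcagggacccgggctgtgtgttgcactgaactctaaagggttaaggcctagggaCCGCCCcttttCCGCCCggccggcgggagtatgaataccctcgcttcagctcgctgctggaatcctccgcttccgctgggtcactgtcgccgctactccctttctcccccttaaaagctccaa
The Krt7 window holds 4 GC boxes and 1 E-box, the Krt19 window 1 GC box and the Nes window 2 GC boxes. At least 1 GC box was found in 42.5% of 21757 promoters of the same length and at least 1 E-box in 20.6%. Holding a match therefore sets none of these windows apart. The share of promoters with several matches was not counted. The AP-1 site, in 7.15% of promoters, matched in the Lmna window alone among the 9 members searched (2 matches), and the TATA box, in 13.2%, in none of the 9. Lmnb1 was not searched.

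Krt7, the basic keratin of simple and glandular epithelia, fell in KO22. The gene lies at chr15:101308924-101328194 on the plus strand and has 9 exons in its canonical transcript. Its level in WT was 3.26, 3.77, 3.54 and 5.24 CPM. In KO22 it was 0.173, 0.289 and 0.466 CPM, which is 2, 6 and 6 reads. Every KO22 library lay below every WT library, which was so in one direction or the other for 50.1% of all genes. The fitted log2 fold change was −3.64 (SE 0.355, 95% interval −4.44 to −2.85, adjusted p = 3.4e-05). Within batches the difference of log2(CPM + 0.5) was −2.48 in batch 8995 and −2.41 in batch 9262, a scale that understates changes at such low levels. The median of all tested genes on chromosome 15 was 0.37 higher in KO22, against the direction of Krt7.

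Krt19, the small acidic keratin that lacks the usual tail domain, rose in KO22 (chr11:100031636-100039491, minus strand, 6 exons). WT libraries held 0, 7, 1 and 1 reads, or 0 to 0.480 CPM. KO22 libraries held 102, 27 and 17 reads, or 8.82, 1.30 and 1.32 CPM. The groups did not overlap, and the first KO22 library, of batch 8995, was far above the other two. The log2 fold change of 4.25 (SE 0.931, adjusted p = 0.00391) fell to 2.48 without that library and to 2.44 without WT replicate 1, and was 6.43 without WT replicate 2. The call held in each of these fits, and its size is therefore poorly fixed.

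Nes, which encodes the filament protein of neural and vascular progenitors and of many dividing cells, rose in KO22 (chr3:87878385-87887758, plus strand, 4 exons). It was at 14.3, 6.10, 6.09 and 5.24 CPM in WT and at 83.1, 81.8 and 101.6 CPM in KO22, where the libraries were close to each other. The lowest KO22 library lay well above the highest WT library, the one of batch 8995. The log2 fold change was 3.53 (SE 0.257, 95% interval 2.95 to 4.11, adjusted p = 6.45e-06), with 2.50 in batch 8995 and 3.86 in batch 9262 on the log2(CPM + 0.5) scale. Leaving out 1 library gave 3.26 to 3.99.

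Synm, the synemin gene, whose product joins filaments to the sarcomere and to adhesion sites, moved the other way (chr7:67379908-67409527, minus strand). It was at 4.21, 5.55, 7.86 and 5.24 CPM in WT and at 1.82, 2.27 and 3.57 CPM in KO22. The groups did not overlap. The log2 fold change of −1.13 (SE 0.258, adjusted p = 0.00482) passed on p but was short of the fold limit. It passed both limits without WT replicate 4 (−1.22) and without KO22 replicate 3 (−1.41). The median of all tested genes on chromosome 7 was −0.32 in KO22, in the direction of Synm. The part of the chromosome in the Synm value was not tested.

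Vim was the most abundant and the least moved (chr2:13578738-13587639, plus strand). WT libraries stood at 2290, 1873, 1805 and 1803 CPM, and KO22 libraries at 2932, 2533 and 2405 CPM. All KO22 libraries were above all WT libraries, by a log2 fold change of 0.41 (SE 0.115, 95% interval 0.15 to 0.67, adjusted p = 0.0138) that was not called. Across the 9 mRPE libraries, after subtraction of batch means, the genes of 16371 whose log2 CPM followed Vim most closely were Cops4 (Pearson r = 0.997), Zdhhc5 (0.993) and Diaph1 (0.991). These are a description of 9 libraries that share clones and batches. The same search for Krt8 could not be run.

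Des, the muscle filament gene, was close to the floor (chr1:75320511-75345223, plus strand). WT libraries held 11, 0, 0 and 0 reads and KO22 libraries 4, 4 and 6. In CPM the ranges overlapped, at 0 to 0.437 in WT and 0.193 to 0.466 in KO22, and no test was made. The KO22 library lay below WT in batch 8995, and both KO22 libraries lay above WT in batch 9262.

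For both lamin genes all KO22 libraries lay above the WT range, and 1 of the genes was called. Lmnb1, which nearly all cells express (chr18:56840590-56886496, plus strand), was at 16.1, 10.2, 7.07 and 9.55 CPM in WT and at 23.6, 37.3 and 41.1 CPM in KO22. Its log2 fold change was 1.67 (SE 0.277, adjusted p = 0.000805). Within batch 8995, with 1 library a group, the difference was 0.54, and within batch 9262 it was 2.09. Lmna (chr3:88387454-88417299, minus strand) was at 142, 82.5, 86.5 and 82.3 CPM in WT and at 190, 188 and 210 CPM in KO22. For this gene the log2 fold change was 1.01 (SE 0.155, adjusted p = 0.000519), below the fold limit, with 0.42 in batch 8995 and 1.24 in batch 9262. In batch 9262 alone the edgeR fit gave 1.25 and called it. The ratio of Lmna to Lmnb1 per kilobase was 4.74 to 7.13 in WT and 2.93 to 4.70 in KO22, so the ranges did not overlap, though the library of KO22 in batch 8995 lay just under the lowest WT library.

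Markers of cell types and states moved with KO22, where 11.4% of all genes were called higher and 13.8% lower. The 3 RPE markers summed to 38.7, 18.2 and 15.5 CPM in KO22, above the WT range given before. By edgeR Mitf, the pigment cell regulator, was called higher (log2 fold change 1.41, adjusted p = 0.0055). Best1 (0.795, adjusted p = 0.159) and Pmel (−0.40, adjusted p = 0.216) were not called. Best1 was at 17.4, 4.05 and 3.34 CPM in KO22. All 8 of 8 cell cycle markers were higher, and their sum was 761 to 966 CPM in WT and 2093 to 3463 CPM in KO22, lowest of the KO22 libraries in that of batch 8995, where Lmnb1 was lowest too. Of 5 fibroblast markers tested, 3 were lower (Col1a1, Col1a2 and Pdgfra), and their sum was 5565 to 8668 CPM. Of 9 smooth muscle and pericyte markers, 4 were lower and 2 higher, with sums of 1006 to 2093 CPM in WT and 367 to 489 CPM in KO22. Of 3 endothelial markers 1 was lower (Kdr) and 1 higher (Plvap), with sums of 152 to 235 CPM in WT and 3.26 to 4.53 CPM in KO22. Nearly all of the WT sum was Kdr, at 151 to 235 CPM, and Pecam1 was not called. No marker of these lists was at 3 reads or fewer in a whole group. Their part in the filament results was not tested.

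In KO26, none of the 8 filament genes was called, beside 1.92% of all genes (1.21% higher and 0.719% lower). The count of 0 comes from edgeR. DESeq2 also gave 0. By edgeR, 4 genes had an unadjusted p under 0.05: Des, Nes, Lmnb1 and Synm. Here and below, the share of all genes at that unadjusted limit was not counted, so such counts cannot be set beside it. KO26 and KO22 were compared with the same WT libraries, so their values are given side by side and not as independent support. The median log2 fold change of the 8 was 0.89, beside 0.03 over all genes.

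Krt7 was at 2.13 and 3.35 CPM in KO26, below the WT range in the first library and within it in the second, and its log2 fold change was −0.43 (SE 0.307, 95% interval −1.11 to 0.25). Krt19 was at 0.696 and 1.50 CPM, above all WT libraries, and ranges lay apart in this comparison for 24.7% of all genes. It had a log2 fold change of 2.56 (SE 1.25, adjusted p = 0.281). Nes was at 23.4 and 11.5 CPM, with 0.96 (SE 0.290, adjusted p = 0.101). In each batch the KO26 library lay above the WT libraries of that batch for every filament gene analysed but Krt7. For Krt7 it lay below them. Batch 8995 holds 1 library of each group, so nearly any gene parts there in one direction or the other. The share of all genes parted the same way in both batches was not counted, so no joint rise can be read from this order. None of these genes was called in KO26 with all mRPE libraries in the fit.

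Synm was at 8.68 and 9.48 CPM, above the WT range, whereas KO22 lay below it, and its log2 fold change in KO26 was 0.82 (SE 0.273, adjusted p = 0.129). Des had 20 reads in each KO26 library, or 0.928 and 2.31 CPM, the highest among the mRPE libraries, with a log2 fold change of 3.30 (SE 0.933, adjusted p = 0.0845). The lamin genes differed between the KO26 libraries, though each library lay above the WT libraries of its batch. Lmnb1 was at 37.0 and 14.2 CPM (log2 fold change 1.10, adjusted p = 0.134) and Lmna at 250.4 and 90.7 CPM (0.55, adjusted p = 0.263). Vim was at 2859 and 1916 CPM, with 0.19 (95% interval −0.13 to 0.51).

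These results for KO26 depend on the libraries that set the spread. With WT and KO26 alone, Krt19 (3.18, adjusted p = 0.00962) and Des (3.13, adjusted p = 0.019) were called. The same pair was called without KO22 replicate 1, at adjusted p = 0.00619 and 0.016, and Des and Nes were called without WT replicate 1, at adjusted p = 0.0253 and 0.049. Of 8 cell cycle markers 3 were higher in KO26 (Ccnb1, Cdk1 and Bub1), beside 1.21% of all genes, with sums of 1728 and 1990 CPM.

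**Figure D2:**
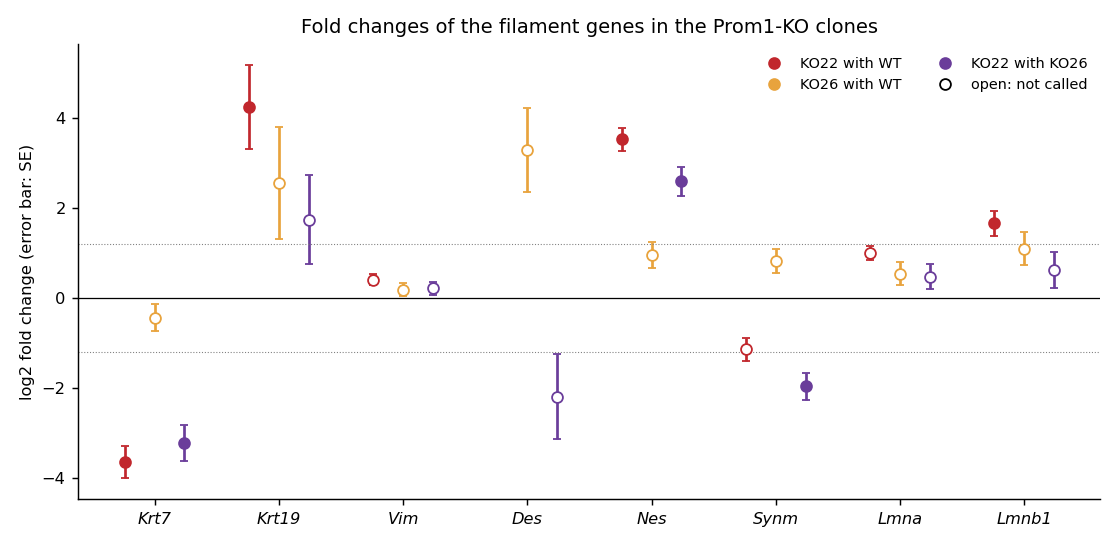
Log2 fold change with its SE (vertical axis) of each filament gene for either clone with WT and for KO22 with KO26, with filled points called and open points not called and dotted lines at the fold limit of 1.2. Krt7 and Nes were called with KO22 on either side of the other groups, and no point of KO26 with WT was.

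The direct test between the clones called Krt7, Nes and Synm, 3 of 8 filament genes, beside 18.3% of all genes (7.56% higher in KO22 and 10.7% lower). Krt7 was lower in KO22 than in KO26 by a log2 fold change of −3.21 (SE 0.405, adjusted p = 0.000217) and Synm by −1.95 (SE 0.299, adjusted p = 0.000727). Nes was higher in KO22, by 2.59 (SE 0.328, adjusted p = 0.000223). All 3 differences had the same sign in both batches, at −1.97 and −2.14 for Krt7, −1.99 and −1.57 for Synm, and 1.81 and 2.94 for Nes. For these genes the clones thus differed beyond the spread of their libraries.

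For the other genes no call was made. Des differed by −2.19 (95% interval −4.26 to −0.11, unadjusted p = 0.0411, adjusted p = 0.0975 in edgeR), with −0.76 in batch 8995 and −1.78 in batch 9262, and was called lower in KO22 without WT replicate 1 (−2.38, adjusted p = 0.0209) and without KO26 replicate 1 (−3.45, adjusted p = 0.024). It was −0.32 without KO26 replicate 2. Krt19 differed by 1.74 (95% interval −0.43 to 3.92) and by −0.45 without KO22 replicate 1. The intervals were −0.14 to 1.08 for Lmna, −0.28 to 1.52 for Lmnb1 and −0.12 to 0.55 for Vim. Within batch 8995 the KO26 library was above KO22 for both lamin genes (−0.39 for Lmna and −0.64 for Lmnb1), and within batch 9262 the clones stood the other way (1.13 and 1.43). Without KO22 replicate 1, Lmnb1 was called higher in KO22 (1.27, adjusted p = 0.000113).

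Other genes of the filament system were followed by lists. Among other keratins, 1 of 6 tested was higher in KO22 and 1 lower, beside the 11.4% and 13.8% of all genes, with a median of −0.76. Krt16, a keratin of stressed epidermis, went from 0, 1, 1 and 2 reads in WT to 17, 13 and 7 in KO22, at least 2.99-fold higher counting 3 reads in the shallowest WT library as the floor, and at least 1.99-fold without the first KO22 library. Krt222, a keratin-like gene, fell from 1.67, 1.44, 1.08 and 1.44 CPM to 1.04, 0.530 and 0.155 CPM (log2 fold change −1.40, adjusted p = 0.0219). Both stayed under 2 CPM in every mRPE library. Keratins are a multigene family, and reads from near-identical stretches could have been assigned to another copy.

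KO26 differed in its keratin. Of 7 other keratins tested, 1 was higher in KO26, beside 1.21% of all genes. That was Krt14, a keratin of basal cells in stratified epithelia. It held 10, 1, 3 and 3 reads in WT, 212 and 18 in KO26 and 0, 1 and 0 in KO22. The log2 fold change in KO26 was 4.11 (SE 0.511, adjusted p = 0.00491), carried mostly by the library of batch 8995 at 9.84 CPM beside 2.08 CPM. In KO22 it was at least 23-fold lower than in KO26 (adjusted p = 6.72e-05), with 3 reads as the floor, and at least 8.02-fold without KO26 replicate 1.

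Proteins that tie filaments to desmosomes and other junctions gave 3 higher and 1 lower of 11 tested in KO22, with a median of −0.24, where 25.2% of all genes were called. Pkp1, a plakophilin of desmosomal plaques, went from 0, 1, 0 and 0 reads in WT to 90, 43 and 29 reads in KO22, or 7.78, 2.07 and 2.25 CPM. That is at least 13.7-fold higher, and at least 7.34-fold without the first KO22 library, that of batch 8995. Pkp4, a plakophilin of adherens junctions, rose from 27.0, 18.7, 18.4 and 14.1 CPM to 96.3, 88.2 and 82.4 CPM (log2 fold change 2.18, SE 0.144, adjusted p = 3.9e-06). Ppl, periplakin, which binds keratin and vimentin, rose by 2.16 (adjusted p = 0.000382). Jup, plakoglobin, which links cadherins to the cytoskeleton, fell from 19.7, 12.6, 12.7 and 15.3 CPM to 3.29, 3.28 and 2.95 CPM (−2.25, SE 0.185, adjusted p = 1.31e-05).

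Jup was the one linker gene called in KO26 too, at 9.84 and 4.16 CPM (−1.28, SE 0.263, adjusted p = 0.028 in edgeR). That is 1 of 11 tested, where 0.719% of all genes were lower. Jup was lower than every WT library in each KO library of either clone. Pkp1, Pkp4 and Ppl were called higher in KO22 than in KO26 (3 of 11), beside 7.56% of all genes. Pkp1 was at least 11.6-fold higher (6.23-fold without KO22 replicate 1), Pkp4 by 1.65 and Ppl by 2.35 on the log2 scale.

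The smaller groups gave single genes. Among other cytoplasmic filament genes, 2 were higher and 1 lower of 4 tested in KO22, where 25.2% of all genes were called. Their median was 0.55, or 0.37 with Prph at its bound. Prph, the peripherin gene of peripheral neurons, went from 1, 2, 0 and 0 reads to 6, 8 and 10 (at least 1.90-fold). Iffo2 rose by 1.28 (adjusted p = 0.00027) and Iffo1 fell by 1.43 on the log2 scale (adjusted p = 0.000379), both genes with a filament-like domain. In KO26 edgeR called 0 of the 4, and 0 had an unadjusted p under 0.05. Prph was at least 1.61-fold higher in KO22 than in KO26.

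Of 20 partners of the nuclear lamina tested in KO22, 2 were higher and 1 lower, with a median of 0.24, where 25.2% of all genes were called. Lmnb2, the other B-type lamin gene, was at 7.15, 5.90, 5.11 and 6.17 CPM in WT and at 9.34, 23.6 and 21.0 CPM in KO22 (log2 fold change 1.51, SE 0.274, adjusted p = 0.00135). Its lowest KO22 library was that of batch 8995, as for Lmnb1. Banf1, which binds DNA to the lamina, rose by 1.31 (adjusted p = 0.00388), though in batch 8995 it was at 28.9 CPM in KO22 and 26.6 CPM in WT, and in batch 9262 at 40.7 and 54.2 CPM beside 12.3 to 15.6 CPM. Syne1, a large protein of the outer nuclear membrane that connects the nucleus to the cytoskeleton, fell from 258, 337, 306 and 331 CPM to 114, 115 and 102 CPM (−1.47, SE 0.125, adjusted p = 1.61e-05), and was lower in KO22 than in KO26 as well (−1.23, adjusted p = 0.000212). In KO26 edgeR called 0 of 20 lamina partners, and 2 had an unadjusted p under 0.05.

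**Figure D3:**
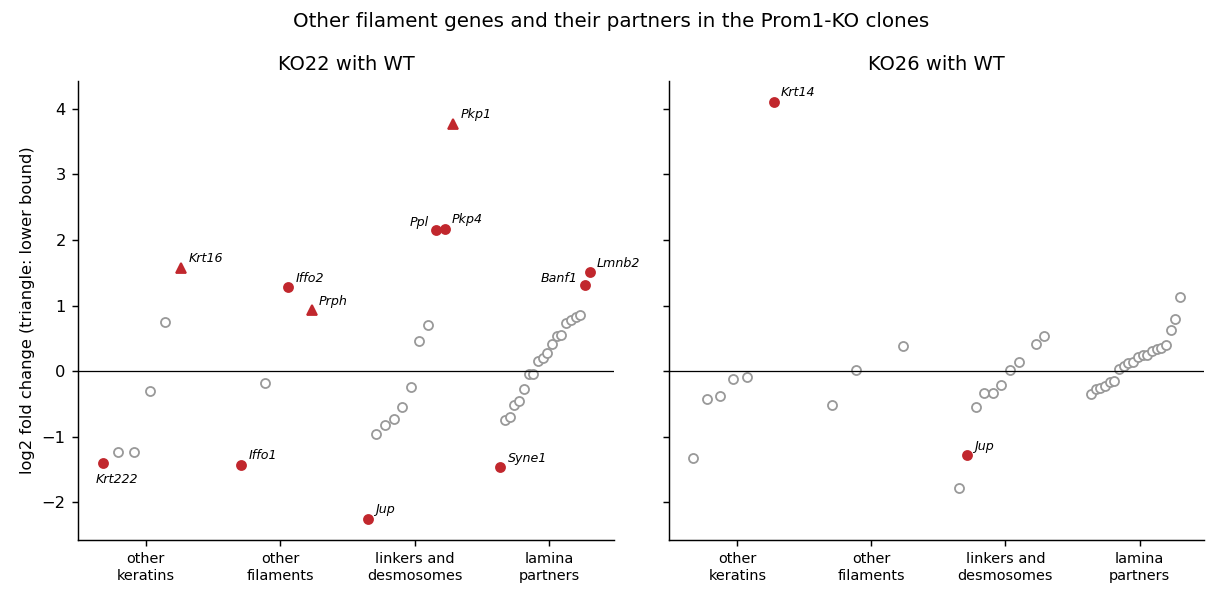
Log2 fold change of each tested gene of 4 lists (other keratins, other filament genes, linkers and desmosomes, lamina partners) for KO22 with WT and KO26 with WT, with red symbols for called genes. Triangles mark genes with 3 reads or fewer in every WT library, drawn at the lower bound of their fold, and genes at that floor in both groups are left out; most called genes are in KO22.

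Among the 10 genes, RPE/choroid had a different makeup of filament RNA. The 10 were not the bulk of it, since 20 other keratins summed to 1193 to 1966 CPM in WT. The 10 genes summed to 252 to 323 CPM in the same libraries. The mean level per kilobase in WT (n = 3) was 28.1 ± 12.4 CPM/kb for Krt19, 19.7 ± 2.31 for Vim, 10.6 ± 4.21 for Krt18, 6.59 ± 3.66 for Des and 5.91 ± 2.46 for Krt8. It was 2.66 ± 0.415 for Lmna, 2.41 ± 0.796 for Synm, 2.38 ± 1.32 for Krt7, 1.91 ± 0.451 for Nes and 1.37 ± 0.210 for Lmnb1. Among neighbours in this order the ranges of the 3 libraries overlapped, except for Vim (18.1 to 22.3) with Krt18 (6.65 to 15.04). The 4 simple keratins together held 1.56 to 3.04 times the level of Vim in WT and 0.783 to 2.18 times in the libraries labelled Prom1-KO. In WT mRPE, the 2 simple keratins analysed (Krt7 and Krt19) were together 0.000959 to 0.00206 times Vim. The highest mRPE value was 0.00775, in KO22 replicate 1. This ratio lacks Krt8 and Krt18, so it is not like for like with that of RPE/choroid. The tables were normalized apart, so no test was made between them.

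None of the 10 genes was called between the libraries labelled Prom1-KO and WT, beside 0.189% of all genes, 47 of 24926 in all and each of them lower. By edgeR, 1 of the 10 had an unadjusted p under 0.05, Lmna, and DESeq2 called 0. The median log2 fold change of the 10 was −0.13, beside 0.01 over all genes. With total counts as library size, chosen after seeing the data, the median of all genes moved by −0.47, so directions here are relative to TMM, whose factor for the third library labelled Prom1-KO was 0.488 and for the others 1.07 to 1.33.

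Krt8 and Krt18 form the first keratin pair of simple epithelia and lie side by side, at chr15:101905133-101912917 (minus strand) and chr15:101936615-101940462 (plus strand), with starts 23.7 kb apart and 0 protein-coding genes between them. Krt8 was at 13.7, 14.95 and 6.05 CPM in WT and at 11.3, 15.1 and 7.23 CPM in the libraries labelled Prom1-KO (log2 fold change −0.04, 95% interval −0.94 to 0.86). Krt18 was at 21.6, 9.56 and 14.7 CPM and at 17.2, 13.5 and 8.29 CPM (−0.23, −1.05 to 0.59). The pair did not keep a fixed ratio, since Krt8 per kilobase was 0.302 to 1.15 times Krt18 over the 6 libraries.

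Krt19 was at 56.1, 73.0 and 27.4 CPM in WT and at 37.3, 69.0 and 24.6 CPM in the libraries labelled Prom1-KO. Krt7 was at 18.8, 24.9 and 6.57 CPM and at 11.4, 25.6 and 6.97 CPM. In either group Krt7, Krt8 and Krt19 were highest in the second library and lowest in the third. The 8 markers of surface epithelium of cornea, conjunctiva and lid summed to 1678, 1451 and 986 CPM in WT. In the libraries labelled Prom1-KO they summed to 1508, 2006 and 1432 CPM. Of these, edgeR called 0, with 2 at an unadjusted p under 0.05. Their sum was lowest in the third library of either group. It was highest in the first WT library and in the second library labelled Prom1-KO. Their part in the keratin levels was not tested.

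Des had the widest spread, at 14.5, 35.2 and 52.1 CPM in WT and 8.58, 13.5 and 63.5 CPM in the libraries labelled Prom1-KO (log2 fold change −0.25, SE 0.769, 95% interval −2.06 to 1.55). Synm was at 12.1, 21.3 and 24.3 CPM and at 12.8, 19.4 and 22.5 CPM. Within each group the libraries stood in the same order for both genes as for the summed level of 10 skeletal muscle markers, which was 314, 704 and 991 CPM in WT and 71.4, 265 and 888 CPM in the others. Of these 10 markers edgeR called 0, with 0 at an unadjusted p under 0.05, and their part in the levels of Des and Synm was not tested.

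**Figure D4:**
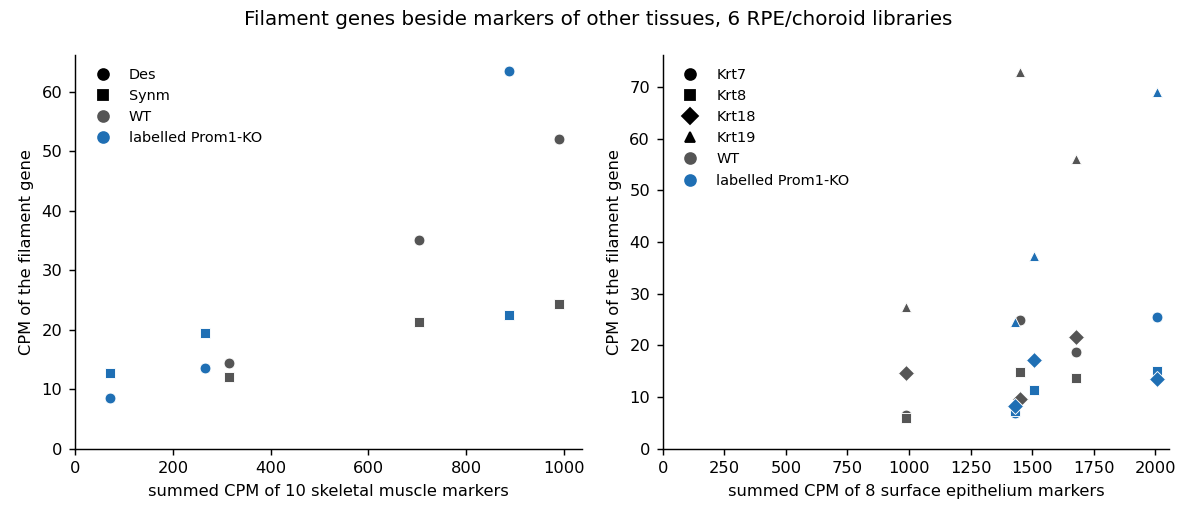
Level of filament genes (CPM) in the 6 RPE/choroid libraries against the summed CPM of 10 skeletal muscle markers (left, Des and Synm) and of 8 surface epithelium markers (right, the 4 keratins). Colours give the group. Des is highest in the 2 libraries with the highest muscle marker sums, 888 and 991 CPM. On the right, Krt19 is lowest in the library with the lowest sum of its group (986 and 1432 CPM). Libraries of like sums (1432 and 1451 CPM) differ in Krt19, at 24.6 and 73.0 CPM.

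Lmna was the one gene of the 10 whose groups did not overlap, which was so for 14.6% of all genes in one direction or the other. It was at 15.9, 19.3 and 14.2 CPM in WT and at 10.9, 14.1 and 10.95 CPM in the libraries labelled Prom1-KO, with the closest pair of libraries nearly touching. The log2 fold change was −0.46 (SE 0.171, adjusted p = 0.535 in edgeR), which did not pass. Vim was at 86.0, 106.1 and 88.4 CPM and at 101.1, 126.5 and 143.7 CPM (0.40, 95% interval −0.002 to 0.81, adjusted p = 0.603), and on total counts the log2 fold change was −0.11. The log2 fold changes of Nes (0.08, 95% interval −0.41 to 0.58) and Lmnb1 (0.09, −0.35 to 0.53) were close to 0, with intervals that leave room for changes in either direction, and turned to −0.38 and −0.32 on total counts.

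RPE markers were lower in these libraries. Of 10, 4 were called lower (Rpe65, Lrat, Rgr and Slc16a8), beside 0.189% of all genes. The sum was 2000 to 2878 CPM in WT and 558 to 751 CPM in the libraries labelled Prom1-KO. Their part in the Lmna values was not tested. Of 5 markers of retinal and optic nerve glia, edgeR called 0, with 3 at an unadjusted p under 0.05. Their median log2 fold change was 1.48, beside 0.01 over all genes. Their sums overlapped, at 145 to 259 CPM in WT and 205 to 354 CPM in the libraries labelled Prom1-KO. The part of the glial markers in the Vim values was not tested. Of 20 other keratins, 11 other cytoplasmic filament genes, 18 linkers and 20 lamina partners tested in RPE/choroid, 0 were called by edgeR. At an unadjusted p under 0.05 there were 2 other keratins, 1 other filament gene, 2 linkers and 1 lamina partner. Gfap, a glial marker and 1 of these other filament genes, was at 0.168, 0.203 and 1.49 CPM in WT. It was at 3.86, 19.7 and 8.82 CPM in the libraries labelled Prom1-KO. The groups did not overlap for Gfap, as for 14.6% of all genes, and it was not called.

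**Figure D5:**
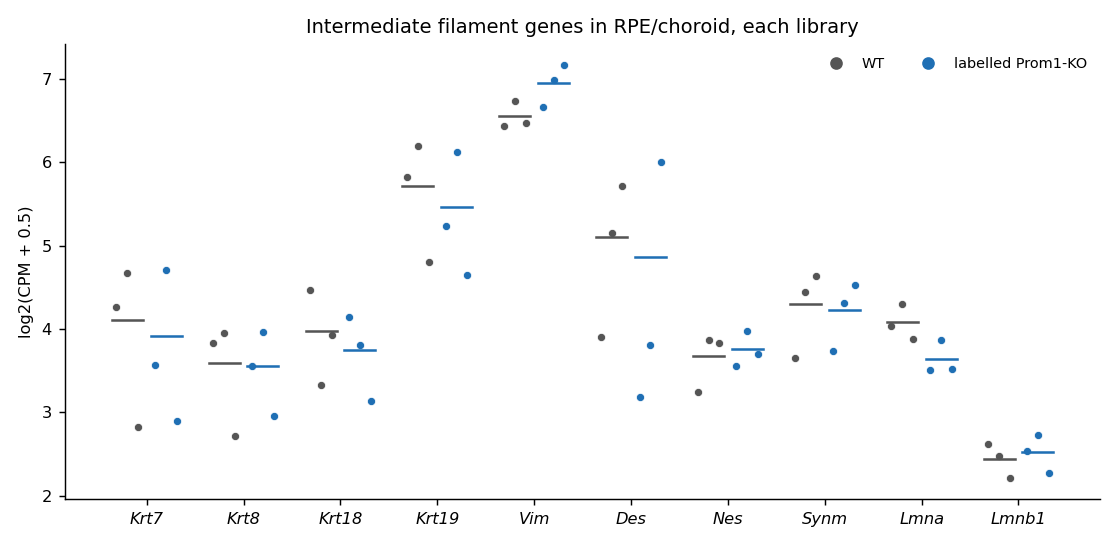
Level of each of the 10 filament genes in the 6 RPE/choroid libraries, as log2(CPM + 0.5). Points are libraries and bars stand at the mean CPM of a group; the groups overlap for 9 genes, and for Lmna all WT libraries lie above those labelled Prom1-KO, 14.2 CPM beside 14.1 CPM at the nearest.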

How the data were processed

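Per the labels and the study's methods, the authors trimmed reads with TrimGalore 0.6.7, mapped them with STAR to the mm39 genome, counted reads per gene with the same tool, and left out genes with fewer than 5 counts in at least 3 libraries. The methods and the labels name different stranded kits, and the strand setting of the counting is not given in the sources used here. The deposited raw counts were used as they stand. The deposited normalized tables and the authors' own comparison columns were not used.

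The filament genes and the lists were chosen with earlier results of these data known. The genes named are the 10 members and, of each list of filament genes and partners, at most the 3 called genes with the largest change in each direction. Gfap, which was not called, and some markers are named besides. Tests were run in R 4.3.3 with edgeR 4.0.16 (quasi-likelihood, TMM, Benjamini-Hochberg over all genes tested) on genes that had 5 counts or more in 3 libraries or more, with the batch as a term in mRPE. KO22 with WT was fitted on 7 libraries and the other mRPE comparisons on 9. Standard errors are the absolute log2 fold change over the square root of F. The code was tested on simulated data. Alternatives were DESeq2 1.42.0, total counts as library size, other filters, fold limits and library sets. Exon lengths and positions come from GENCODE on GRCm39.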

Additional observations from a re-analysis of the deposited data

Results flagged for a closer look

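In WT mRPE, replicate 1, the only WT library of batch 8995, lay far above the other 3 for 4 genes by Dixon's test of an extreme value, which flags about 1 in 20 groups by chance. Its level was 2290 CPM for Vim (gap over range 0.856), 14.3 CPM for Nes (0.904), 141.9 CPM for Lmna (0.929) and 0.437 CPM for Des (1.00). Batch and replicate cannot be told apart here.

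The effects of the clones differed by the direct test for 3 genes, with log2 fold changes (KO22 minus KO26) of −3.21 for Krt7, 2.59 for Nes and −1.95 for Synm.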

How the results depend on the processing

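Across alternatives, the members' log2 fold changes kept direction and side of the limits 504 times, passed the limits 20 times where they had not before, turned sign 23 times and lost a call 0 times. The cause was not tested. In KO22 with WT, 2 filament genes were lower with filterByExpr or a log2 limit of 1, and 5 were higher and 2 lower with no fold limit. Leaving out 1 library gave 1 to 2 lower, with 2 without WT replicate 4 or KO22 replicate 3. In KO26 with WT, 2 were higher with WT and KO26 alone, and leaving out 1 library gave 0 to 2, with 2 without WT replicate 1 or KO22 replicate 1. In KO22 with KO26 it gave 1 to 2 higher, with 2 without KO22 replicate 1, and 2 to 3 lower, with 3 (Des added) without WT replicate 1 or KO26 replicate 1.

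Over all genes, no fold limit gave 5506 higher and 5331 lower in KO22 with WT, 490 and 235 in KO26 with WT, and 3388 and 3744 in KO22 with KO26. KO26 with WT had 269 lower by DESeq2, 123 higher and 71 lower without the batch term, and 408 and 410 with those groups alone. Leaving out 1 library gave 68 to 471 higher and 32 to 407 lower. KO22 and KO26 alone gave 988 and 1348. RPE/choroid had 83 higher and 188 lower by DESeq2, 4 and 84 on total counts, 1 higher with filterByExpr and 1 without mitochondrial genes, and 0 to 5 higher and 9 to 37 lower with 1 library left out.

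Signs of fitted fold changes turned in RPE/choroid on total counts, an alternative chosen after seeing the data (−0.11 for Vim, −0.376 for Nes and −0.319 for Lmnb1), and otherwise only with 1 library left out, where KO22 with KO26 ranged from −0.45 to 3.15 for Krt19 and from −0.075 to 0.99 for Lmna. In RPE/choroid the ranges were −0.86 to 0.21 for Krt7, −0.35 to 0.19 for Krt8, −0.50 to 0.10 for Krt18, −0.75 to 0.063 for Krt19, −1.63 to 0.20 for Des, −0.10 to 0.20 for Nes, −0.033 to 0.20 for Lmnb1 and −0.32 to 0.13 for Synm. Where a group was left with 1 library, that library was taken to vary like the others. CPM from the total count moved 3 of 44 mean levels by over 1 SD, and the longest transcript as length moved 17 of 44. Low reads limit Krt19, Krt7 and Des in mRPE most.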
